A study of Mus musculus with 8 samples.

Results

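Levels of 10 transcription factor genes that mark squamous or columnar epithelium were followed in mouse esophageal organoids, namely Trp63, Sox2, Sox9, Pax9, Klf4, Klf5, Gata6, Foxa1, Elf3 and Grhl3. They were taken by gene name from a table of 52636 genes, and all 10 were among the 16180 genes tested, which reached 1 CPM (the authors' counts scaled to the library total) in at least 2 libraries. RNA was sequenced from 8 libraries in 4 groups of 2. Cells from digested esophagi of wild-type mice were grown in Matrigel, a basement membrane gel, for 13 days and treated for 72 h, with the treatment renewed every 24 h. The groups received TGFb1 at 1 ng/ml with BMP4 at 20 ng/ml, TGFb1 alone at 1 ng/ml, BMP4 at 20 ng/ml with A8301 at 500 nM, or A8301 alone at 500 nM as the control. A8301 is a small molecule that inhibits TGFb type I receptors, and is called the inhibitor here. No inhibitor is listed where TGFb1 was given, so that TGFb1 groups differ from inhibitor groups in 2 ways, the ligand and the inhibitor, which cannot be told apart. Whether libraries of 1 group stem from different mice is not stated, and p-values then measure only their spread, which may be technical.

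The esophagus of mice is lined by a stratified squamous epithelium, whose basal cells divide and whose suprabasal cells flatten and keratinise. The p63 protein, encoded by Trp63, together with SOX2, PAX9 and KLF5 belongs to the basal and progenitor program of this tissue, while KLF4 and GRHL3 act in differentiation and barrier formation. SOX9, FOXA1, GATA6 and ELF3 are used as factors of columnar or glandular epithelia such as those of stomach, intestine and airway, although ELF3 is also made by differentiating squamous cells. TGFb1 and BMP4 are secreted ligands of the same family that signal through separate receptors to different sets of SMAD proteins.

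Klf4, Grhl3 and Trp63 fell and Sox9, Foxa1 and Elf3 rose with TGFb1, with or without BMP4, relative to the inhibitor group. With TGFb1 and BMP4 together, 3 of the 10 genes were higher than with the inhibitor, against a background of 27.6% of all tested genes, and 3 were lower, against 18.4%. With TGFb1 alone, 3 were higher and 3 lower, against backgrounds of 20.0% higher and 20.0% lower. With BMP4 and the inhibitor, 0 of 10 passed limma's threshold of an adjusted p of 0.05, against backgrounds of 5.49% higher and 2.91% lower, and 2 (Sox2 and Foxa1) had an unadjusted p under 0.05. These backgrounds are shares at the adjusted p, and the share of all genes at the unadjusted p is not given. Of all calls between TGFb1 with BMP4 and the inhibitor, 60.0% were higher, and with median-of-ratios scaling 48.4%. That scaling moved the median log2 fold change of all genes by -0.12 in this comparison (by -0.11 to -0.12 in the 4 comparisons that involve the combined treatment) and left each of the 6 calls in place. Fold changes below are on the log2(CPM + 1) scale, with the standard error (SE) of a fit over all 8 libraries.

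**Figure D1:**
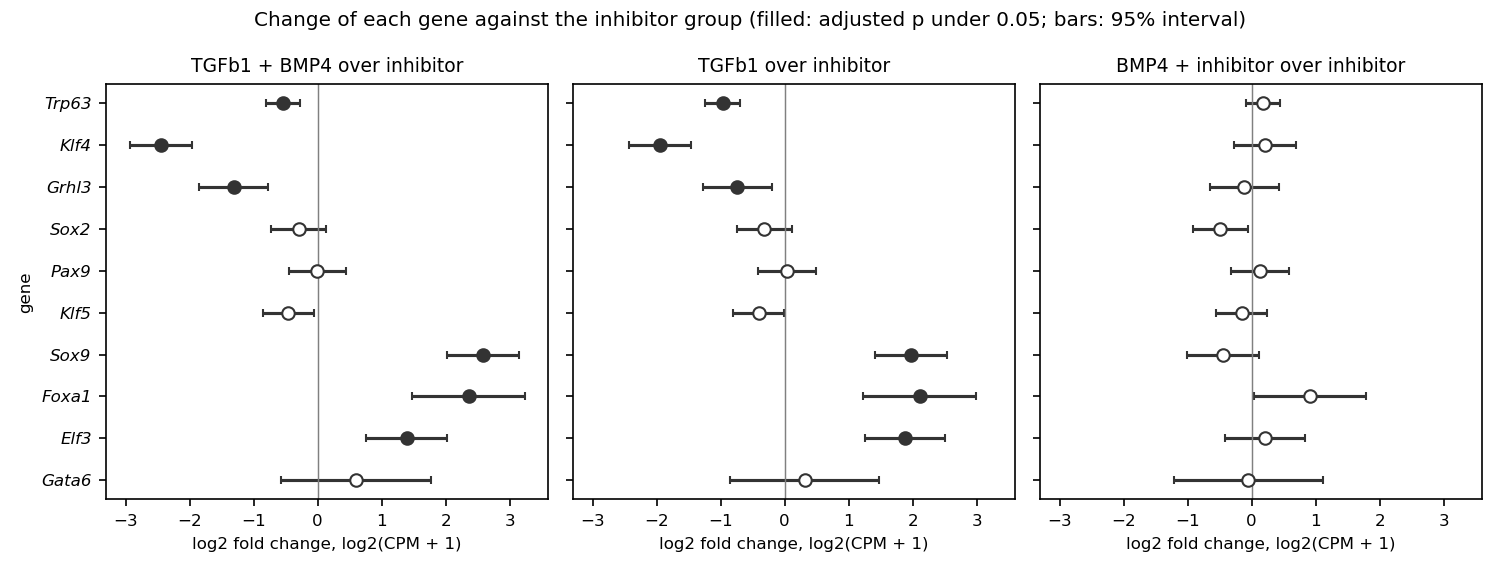
Log2 fold change of each gene over the inhibitor group, on the log2(CPM + 1) scale, for TGFb1 with BMP4 (left), TGFb1 (middle) and BMP4 with inhibitor (right), 2 libraries per group. Points are estimates, bars their 95% intervals, and filled points passed an adjusted p of 0.05; Klf4 lies lowest in both TGFb1 panels, at -2.45 and -1.94, and no point is filled for BMP4 with inhibitor.

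Markers of squamous epithelium were expressed in every library. All 10 of them, among them Krt5, Krt13, Dsg3 and Cdh1, were above 1 CPM throughout. Their sum was 20350 to 24550 CPM with TGFb1 and BMP4 and 30520 to 32740 CPM with TGFb1. It was 31240 to 32180 CPM with BMP4 and inhibitor and 28010 to 32420 CPM with inhibitor. The sums hide single genes that moved in opposite directions. Krt4 had 323 and 459 CPM with TGFb1 and BMP4 and 3870 and 5200 CPM with TGFb1. It had 544.5 and 361 CPM with BMP4 and inhibitor and 4097 and 2824 CPM with inhibitor. Krt13 was also lower in both BMP4 groups, while Dsc3 and Dsp were higher with BMP4 and inhibitor than with inhibitor. Of 12 columnar markers, the simple-epithelium keratins Krt7, Krt8, Krt18 and Krt20 made up nearly the whole sum, which was 1231 to 1258 CPM with TGFb1 and BMP4, 1256 to 1512 CPM with TGFb1, 105 to 224 CPM with BMP4 and inhibitor and 24.6 to 26.6 CPM with inhibitor. The mucous-cell genes Tff2 and Tff3 were at 0 in every library and Muc5ac did not exceed 0.05 CPM. Fibroblast markers also moved with TGFb1: the sum over 11 genes was 1436 to 6717 CPM with TGFb1 and BMP4, 1333 to 4639 CPM with TGFb1, 125 to 487 CPM with BMP4 and inhibitor and 27.6 to 114 CPM with inhibitor. Skeletal muscle markers summed to 69.1 to 369 CPM, 44.4 to 189 CPM, 32.9 to 139 CPM and 8.80 to 47.5 CPM in the same 4 groups. In every group the library of replicate 2 had the higher fibroblast and muscle sums, and the second library of TGFb1 with BMP4 had the lowest squamous sum of all. In the same 4 groups the 7-gene immune sum was 31.0 to 77.9, 37.9 to 83.8, 67.5 to 68.5 and 128 to 148 CPM. It was mostly Cd68, Csf1r and Lyz2, and the pan-leukocyte gene Ptprc did not exceed 0.30 CPM. The fall of this sum with TGFb1 came mainly from Cd68. Cd68 had 11.0 and 12.5 CPM with TGFb1 and BMP4 and 131 and 106 CPM with inhibitor. Csf1r stayed between 10.6 and 17.8 CPM. Lyz2 instead had 5.90 and 51.6 CPM with TGFb1 and BMP4 and at most 3.40 CPM with inhibitor. Like the fibroblast sum, Lyz2 was higher in replicate 2 of each group. The glia and neuron sum was 107.7 to 115 CPM with BMP4 and inhibitor, nearly all of it Tubb3, and at most 16.1 CPM elsewhere. Smooth muscle sums were 119 to 279.7 CPM, 77.6 to 155 CPM, 103 to 155 CPM and 81.8 to 92.4 CPM in the same order of groups, and endothelial sums did not exceed 4.60 CPM. In bulk RNA, fewer cells of a type and less RNA per cell cannot be told apart.

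KLF4 is a zinc-finger factor that drives terminal differentiation of squamous epithelia and is needed for the skin barrier. Klf4 (ENSMUSG00000003032, chr4:55527143-55532466, minus strand, GRCm38) had 129.7 and 119.7 CPM in the libraries of TGFb1 with BMP4, 142 and 221 CPM with TGFb1, 744 and 831 CPM with BMP4 and inhibitor, and 698 and 668 CPM with inhibitor. Each library of the TGFb1 groups lay below each library of the inhibitor groups. Klf4 fell by 2.45 (SE 0.20, adjusted p 0.000372, limma) with TGFb1 and BMP4 and by 1.94 (SE 0.20, adjusted p 0.0012) with TGFb1, both against the inhibitor, the most of the 10 genes in each comparison. Both calls stood in all 8 fits that left out 1 library.

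GRHL3 is a grainyhead-family factor of suprabasal cells that switches on genes of the cornified envelope. Grhl3 (ENSMUSG00000037188, chr4:135541888-135573630, minus strand, GRCm38) had 125 and 93.1 CPM with TGFb1 and BMP4, 161 and 160.3 CPM with TGFb1, 275 and 223 CPM with BMP4 and inhibitor, and 326 and 221 CPM with inhibitor. The TGFb1 groups lay apart from the inhibitor groups, and the 2 inhibitor libraries differed from each other more than the libraries of any other group. Grhl3 fell by 1.31 (SE 0.23, adjusted p 0.00469, limma) with TGFb1 and BMP4, which stood in all 8 fits with a library left out. With TGFb1 it fell by 0.74 (SE 0.23, adjusted p 0.0401), and this call was lost with median-of-ratios scaling (adjusted p 0.0621) and with no filter (0.0854). It was also lost without the first inhibitor library (log2 fold change -0.46, adjusted p 0.180), without the first TGFb1 library (0.131) and without the second TGFb1 library (0.119).

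The p63 protein is the master factor of stratified epithelia, and in mice that lack it the esophageal lining stays columnar. Trp63 (ENSMUSG00000022510, chr16:25683763-25892102, plus strand, GRCm38) had 324 and 296 CPM with TGFb1 and BMP4, 218 and 244 CPM with TGFb1, 533 and 492 CPM with BMP4 and inhibitor, and 437 and 468 CPM with inhibitor. Values per gene do not separate the transcripts of its alternative starts. The TGFb1 libraries were lowest, those of TGFb1 with BMP4 came next, and neither group overlapped the inhibitor groups. Trp63 fell by 0.54 (SE 0.11, adjusted p 0.00924, limma) with TGFb1 and BMP4 and by 0.97 (SE 0.11, adjusted p 0.00162) with TGFb1, relative to the inhibitor. The first of these calls was lost without the second library of TGFb1 with BMP4 (adjusted p 0.0514) or without the second inhibitor library (0.0541). The second stood in all 8 such fits.

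SOX9 is an HMG-box factor of glandular progenitors, of intestinal crypts and of Barrett's metaplasia in humans. Sox9 (ENSMUSG00000000567, chr11:112782224-112787760, plus strand, GRCm38) had 191 and 153 CPM with TGFb1 and BMP4, 142 and 87.3 CPM with TGFb1, 19.2 and 20.9 CPM with BMP4 and inhibitor, and 29.8 and 25.6 CPM with inhibitor. The lowest TGFb1 library was thus well above the highest library of either inhibitor group. Sox9 rose by 2.59 (SE 0.24, adjusted p 0.000466, limma) with TGFb1 and BMP4 and by 1.97 (SE 0.24, adjusted p 0.00179) with TGFb1, against the inhibitor, and both calls stood in all 8 fits with a library left out. Sox9 had the widest range of the 10 genes, 9.92-fold between the highest and the lowest library.

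FOXA1 is a forkhead factor that opens chromatin in endoderm-derived and glandular epithelia. Foxa1 (ENSMUSG00000035451, chr12:57540628-57546916, minus strand, GRCm38) had 64.1 and 52.3 CPM with TGFb1 and BMP4, 64.1 and 36.7 CPM with TGFb1, 28.9 and 14.6 CPM with BMP4 and inhibitor, and 11.6 and 9.50 CPM with inhibitor. The 2 TGFb1 groups overlapped, both lay above BMP4 with inhibitor, and that group lay above the inhibitor. Foxa1 rose by 2.36 (SE 0.37, adjusted p 0.00319, limma) with TGFb1 and BMP4 and by 2.11 (SE 0.37, adjusted p 0.00619) with TGFb1, and both calls stood in all 8 fits with a library left out. With BMP4 and the inhibitor its log2 fold change was 0.91 (95% interval 0.034 to 1.79, adjusted p 0.174), and with the replicate number as a block the adjusted p was 0.0209. This value was 0.44 without the first library of BMP4 with inhibitor and 1.38 without the second.

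ELF3 is an ETS factor of epithelial cells that takes part in intestinal differentiation and, in squamous cells, in late differentiation. Elf3 (ENSMUSG00000003051, chr1:135253575-135258568, minus strand, GRCm38) had 563 and 461 CPM with TGFb1 and BMP4, 798 and 640 CPM with TGFb1, 296 and 171 CPM with BMP4 and inhibitor, and 191 and 196 CPM with inhibitor. Its highest group was TGFb1 alone, while the BMP4 with inhibitor libraries lay on both sides of the inhibitor libraries. Elf3 rose by 1.39 (SE 0.26, adjusted p 0.00655, limma) with TGFb1 and BMP4 and by 1.88 (SE 0.26, adjusted p 0.00293) with TGFb1, and both calls stood in all 8 fits with a library left out.

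A gene on the opposite strand, Gm26642 (chr1:135248561-135266443, plus strand), overlaps Elf3 (chr1:135253575-135258568, minus strand). Their exons share 162 bases, 7.31% of the merged exons of Elf3. Gm26642 had 184 and 149 CPM with TGFb1 and BMP4, 239 and 192 CPM with TGFb1, 109 and 64.8 CPM with BMP4 and inhibitor, and 61.3 and 60.5 CPM with inhibitor. In the 8 libraries it stood at 0.300 to 0.379 times the CPM of Elf3. Against the inhibitor it rose by 1.43 (SE 0.25, adjusted p 0.00489, limma) with TGFb1 and BMP4 and by 1.80 (SE 0.25, adjusted p 0.00287) with TGFb1. The shared bases are 5.82% of the merged exons of Gm26642. The strand setting of the counting is not given in the sources used here, so reads over these shared bases cannot be told apart.

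**Figure D2:**
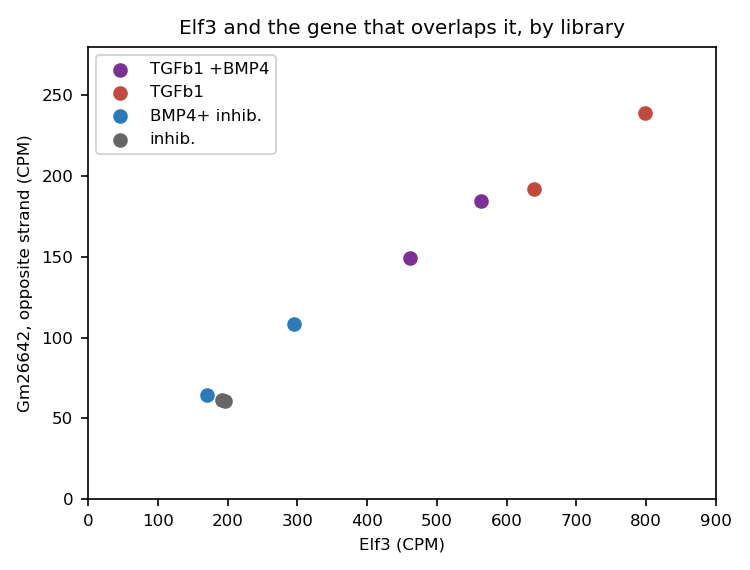
CPM of Gm26642 (y) against CPM of Elf3 (x) in the 8 libraries, coloured by group. Gm26642 lies between 0.300 and 0.379 times Elf3 in every library, and the 4 libraries of the TGFb1 groups lie farthest from the origin.

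Sox9, Foxa1 and Elf3 rose in the groups where the fibroblast, skeletal muscle and columnar keratin sums given above were higher. Within each TGFb1 group, Sox9, Foxa1 and Elf3 were lower in replicate 2 than in replicate 1. The fibroblast and skeletal muscle sums were higher in replicate 2 of both groups. The columnar sum was also lower in replicate 2, at 1258 and 1231 CPM with TGFb1 and BMP4 and 1512 and 1256 CPM with TGFb1. Krt20, a part of that sum, was higher in replicate 2, at 384 and 513 CPM and at 324.5 and 334 CPM in these groups. With BMP4 and inhibitor Sox9 was higher in replicate 2 (19.2 and 20.9 CPM), and so was Elf3 with inhibitor (191 and 196 CPM). The other values of the 3 genes were lower in replicate 2 there. Without the 3 collagen genes, which are also matrix genes, the fibroblast sum was 89.1 and 582 CPM with TGFb1 and BMP4, 119 and 453 CPM with TGFb1, 32.1 and 136 CPM with BMP4 and inhibitor, and 13.2 and 55.5 CPM with inhibitor. The part of other cell types in these changes was not tested beyond these values.

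Promoter windows of the called genes are shown because members that moved in opposite directions could be read side by side. They run from 250 bases before to 50 bases after the RefSeq start on GRCm38.p6, and 6 of the 10 genes had an entry. Trp63, Sox9, Klf5 and Gata6 had none. The windows of Foxa1 and Pax9 lie wholly inside the gene spans given in this text, and that of Sox2 wholly before its span. For these genes the window therefore does not cover the 5′ end of that span. The windows are chr4:55532426-55532725 for Klf4 and chr4:135573583-135573882 for Grhl3, which fell, and chr12:57546062-57546361 for Foxa1 and chr1:135258423-135258722 for Elf3, which rose, all 4 on the minus strand and written 5′ to 3′ along the gene. Capitals mark the SMAD box, CAGAC or GTCTG on the other strand.
Klf4: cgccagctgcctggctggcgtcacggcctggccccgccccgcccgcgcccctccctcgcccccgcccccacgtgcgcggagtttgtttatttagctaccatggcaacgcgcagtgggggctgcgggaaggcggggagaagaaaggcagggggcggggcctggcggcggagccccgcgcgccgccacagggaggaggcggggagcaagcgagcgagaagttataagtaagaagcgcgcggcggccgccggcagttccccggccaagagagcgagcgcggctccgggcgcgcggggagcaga
Grhl3: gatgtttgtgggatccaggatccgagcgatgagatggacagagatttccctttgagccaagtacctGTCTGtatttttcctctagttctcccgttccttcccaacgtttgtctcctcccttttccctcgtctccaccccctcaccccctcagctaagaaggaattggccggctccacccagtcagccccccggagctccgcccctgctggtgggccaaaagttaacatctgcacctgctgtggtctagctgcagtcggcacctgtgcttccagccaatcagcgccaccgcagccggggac
Foxa1: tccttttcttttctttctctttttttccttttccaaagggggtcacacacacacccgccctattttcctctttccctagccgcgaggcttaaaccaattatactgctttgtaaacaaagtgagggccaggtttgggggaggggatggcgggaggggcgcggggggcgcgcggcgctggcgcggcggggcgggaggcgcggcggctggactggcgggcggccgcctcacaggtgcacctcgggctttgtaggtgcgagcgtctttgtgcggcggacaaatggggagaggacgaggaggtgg
Elf3: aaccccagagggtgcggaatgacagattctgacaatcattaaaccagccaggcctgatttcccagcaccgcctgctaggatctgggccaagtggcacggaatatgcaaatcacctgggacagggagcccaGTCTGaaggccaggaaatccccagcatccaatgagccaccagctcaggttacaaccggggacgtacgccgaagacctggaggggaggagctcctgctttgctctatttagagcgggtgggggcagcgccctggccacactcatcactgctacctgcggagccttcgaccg
The SMAD box, a short sequence that SMAD proteins can bind, occurred once in Grhl3 with its first base 184 bases before the start, once in Elf3 at 120 bases before it, and not in Klf4 or Foxa1. Of 32851 promoters of the same length, 49.6% held it on either strand. A gene that fell and a gene that rose therefore each had a match, and so did Pax9, which passed no test. The GC-rich SMAD element GGCGCC was found in the Pax9 window and in 11.9% of all promoters, and the AP-1 element TGANTCA in none of the 6 windows and in 7.81% of all promoters. No matches overlapped. GC content was 74.3% for Klf4, 58.3% for Grhl3, 62.3% for Foxa1, 59.0% for Elf3, 66.3% for Sox2 and 47.0% for Pax9, beside a median of 52.7% over all promoters. A match is a description of the letters and not a bound site.

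In the fit with the group as the only term, the remaining 4 genes passed in none of the 6 comparisons between groups. Klf5 and Gata6 passed under some other settings, which are given with their values. PAX9 is a paired-box factor of foregut endoderm and of esophageal differentiation. Pax9 (ENSMUSG00000001497, chr12:56691767-56712822, plus strand, GRCm38) had 122 and 107 CPM with TGFb1 and BMP4, 129 and 108 CPM with TGFb1, 141 and 112 CPM with BMP4 and inhibitor, and 132 and 99.7 CPM with inhibitor. All 4 groups overlapped and in each the first library was the higher. Its log2 fold change over the inhibitor was -0.01 with TGFb1 and BMP4 (95% interval -0.45 to 0.44), 0.04 with TGFb1 (-0.41 to 0.49) and 0.13 with BMP4 and inhibitor (-0.32 to 0.58). The protein-coding gene Slc25a21 overlaps exons of Pax9 on the opposite strand and did not exceed 6.40 CPM.

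SOX2 is an HMG-box factor that sets esophageal against airway fate in the foregut. Sox2 (ENSMUSG00000074637, chr3:34650405-34652461, plus strand, GRCm38) had 38.6 and 33.1 CPM with TGFb1 and BMP4, 34.5 and 36.1 CPM with TGFb1, 37.1 and 26.1 CPM with BMP4 and inhibitor, and 42.1 and 46.3 CPM with inhibitor. Both inhibitor libraries were above the other 6, yet the differences missed the threshold. The log2 fold change was -0.30 with TGFb1 and BMP4 (95% interval -0.73 to 0.13), -0.31 with TGFb1 (-0.74 to 0.12) and -0.49 with BMP4 and inhibitor (-0.92 to -0.059, unadjusted p 0.0314, adjusted p 0.145, limma).

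KLF5 is a zinc-finger factor of dividing basal cells. Klf5 (ENSMUSG00000005148, chr14:99298691-99315036, plus strand, GRCm38) had 161 and 136 CPM with TGFb1 and BMP4, 165 and 143 CPM with TGFb1, 212 and 159 CPM with BMP4 and inhibitor, and 198 and 209.6 CPM with inhibitor. Both TGFb1 groups lay below both inhibitor libraries, while BMP4 with inhibitor overlapped them. Its log2 fold change over the inhibitor was -0.46 with TGFb1 and BMP4 (95% interval -0.86 to -0.061, adjusted p 0.0609, limma) and -0.40 with TGFb1 (-0.80 to -0.0044, adjusted p 0.0965). With the replicate number as a block these had adjusted p-values of 0.0196 and 0.0345. The comparison for TGFb1 with BMP4 also passed with the compared groups alone (adjusted p 0.0429), without the first library of BMP4 with inhibitor (adjusted p 0.0313) and without the second (0.0312).

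GATA6 is a zinc-finger factor of endoderm, stomach and intestine. Gata6 had 1.30 and 3.85 CPM with TGFb1 and BMP4, 1.15 and 2.45 CPM with TGFb1, 0.500 and 2.00 CPM with BMP4 and inhibitor, and 0.850 and 1.60 CPM with inhibitor. Replicate 2 was the higher in each group, as for the fibroblast and muscle sums, and the groups overlapped. Its log2 fold change was 0.61 with TGFb1 and BMP4 (95% interval -0.56 to 1.78, adjusted p 0.337, limma), and with the replicate number as a block the adjusted p was 0.0379. The processed transcript 1010001N08Rik overlaps its exons on the opposite strand and did not exceed 0.20 CPM.

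**Figure D3:**
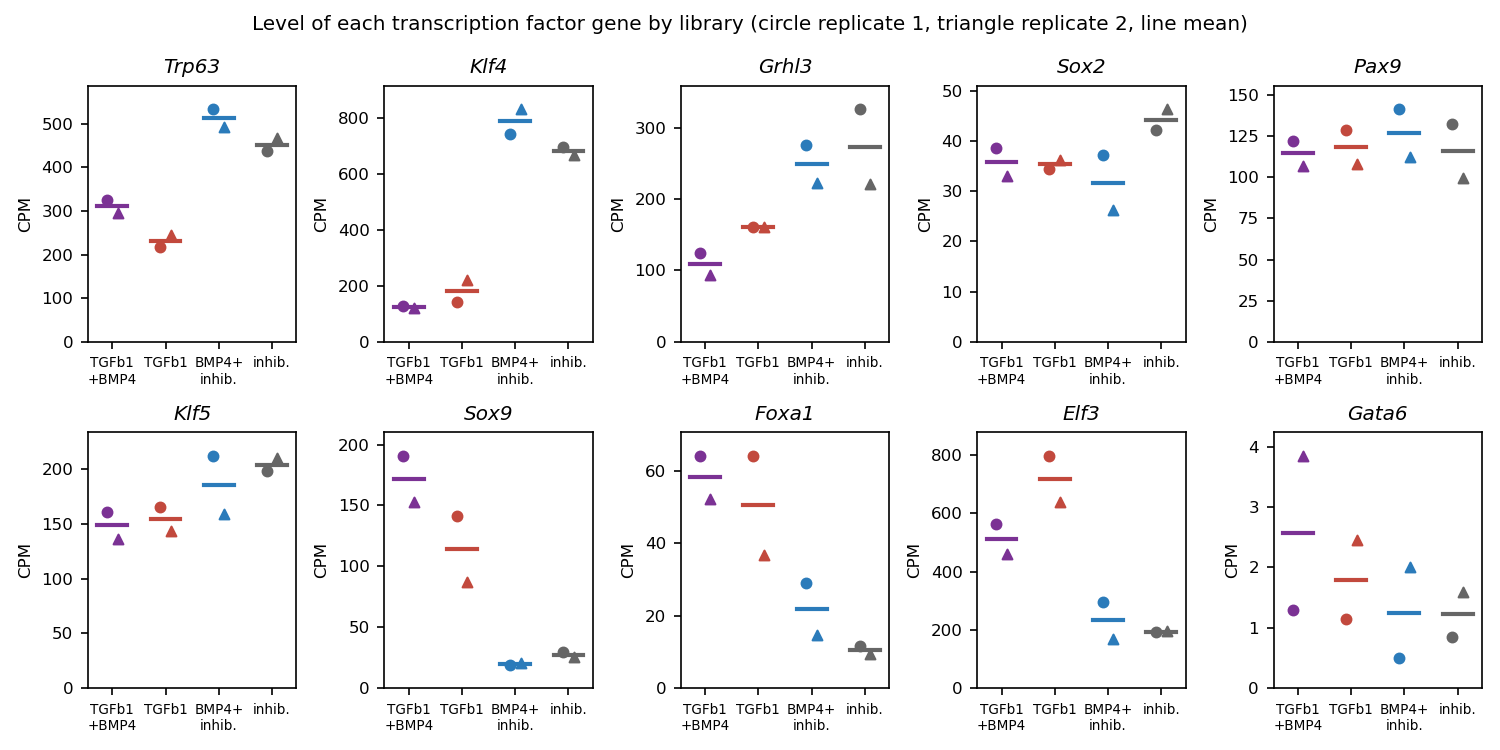
CPM (y, from 0) of each of the 10 genes in each library, by group (x); circles are replicate 1, triangles replicate 2 and lines the mean of the 2 libraries. Klf4, Trp63 and Grhl3 are lower and Sox9, Foxa1 and Elf3 higher in both TGFb1 groups than in the inhibitor group, while the 4 groups of Pax9 overlap and Gata6 stays under 4 CPM.

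Per kilobase of merged exons, which allows levels of different genes to be set side by side, the leading gene differed between the groups. Elf3 ranked first with TGFb1 and BMP4, at a mean of 231 CPM per kilobase, and with TGFb1, at 324. Klf4 ranked first with BMP4 and inhibitor, at 258 CPM per kilobase, and with inhibitor, at 224. The ratio of Elf3 to Klf4 per kilobase was 5.97 and 5.30 in the libraries of TGFb1 with BMP4, 7.72 and 3.98 with TGFb1, 0.546 and 0.282 with BMP4 and inhibitor, and 0.377 and 0.404 with inhibitor. This ratio is taken within a library and so does not change with the scaling, but Elf3 carries the strand limit given above.

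Sox9 ranked second of 10 with TGFb1 and BMP4, at 41.6 CPM per kilobase, beside Klf4 at 40.9, Grhl3 at 39.1 and Trp63 at 37.0, and its libraries overlapped those of each of these 3 genes. It ranked eighth with inhibitor, at 6.70 CPM per kilobase. Trp63 held 27.6 CPM per kilobase with TGFb1 and 53.9 with inhibitor, Foxa1 15.2 and 3.17 in the same groups, and Sox2 17.2 and 21.5. Gata6 was last in each of the 4 groups, at 0.188 to 0.395 CPM per kilobase.

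**Figure D4:**
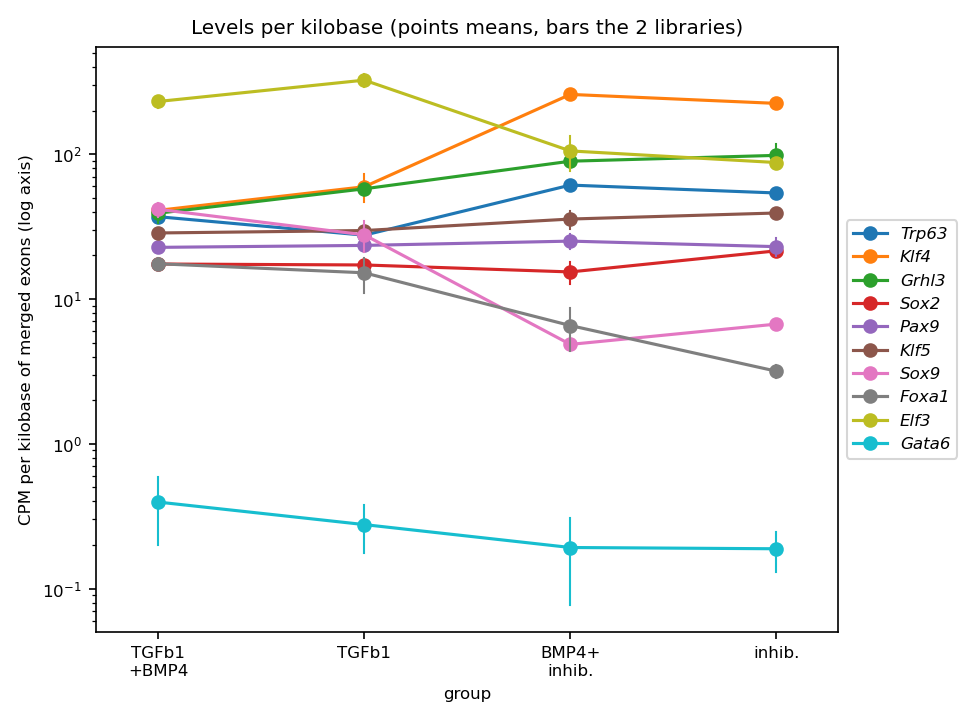
Mean CPM per kilobase of merged exons (y, log axis) of the 10 genes in the 4 groups (x); points are means, vertical bars join the 2 libraries and lines join the groups of 1 gene. Elf3 is on top in both TGFb1 groups and Klf4 in both inhibitor groups, and Gata6 lies below 1 CPM per kilobase throughout.

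BMP4 added to TGFb1 was tested against TGFb1 alone, which asks what BMP4 does where no inhibitor is listed. None of the 10 genes passed in limma, against backgrounds of 0.921% of all genes higher and 1.09% lower, and 4 (Trp63, Sox9, Klf4 and Grhl3) had an unadjusted p under 0.05. The backgrounds again are for the adjusted p, and the share of all genes at the unadjusted p in this fit is not given. Trp63 had a log2 fold change of 0.42 (95% interval 0.15 to 0.69, adjusted p 0.122, limma), Sox9 0.61 (0.049 to 1.18, adjusted p 0.222), Klf4 -0.50 (-0.99 to -0.020, adjusted p 0.234) and Grhl3 -0.57 (-1.11 to -0.032, adjusted p 0.229). The libraries of the 2 groups did not overlap for 5 of the 10 genes, these 4 and Elf3. How many of all genes were apart in this way is not given, so this adds no support. For 3 of the 4 genes with an unadjusted p under 0.05, the values moved with single libraries. Without the first TGFb1 library Sox9 was at 0.96 and Klf4 at -0.82, and without the second at 0.27 and -0.19. Grhl3 was at -0.36 without the second library of TGFb1 with BMP4. Of all calls in this comparison 45.7% were higher, and with median-of-ratios scaling 29.7%.

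Whether BMP4 acted differently with TGFb1 than with the inhibitor was tested as an interaction, which also differs in the inhibitor. None of the 10 genes passed in limma, against a background of 1.29% of all genes, and 2 had an unadjusted p under 0.05. Here too the background is for the adjusted p only. Sox9 had an interaction of 1.06 (95% interval 0.26 to 1.86, adjusted p 0.185) and Klf4 of -0.71 (-1.39 to -0.023, adjusted p 0.252), the second at -0.39 without the second TGFb1 library. For Sox9, BMP4 went with a log2 fold change of 0.61 beside TGFb1 and of -0.44 beside the inhibitor, and for Klf4 with -0.50 and 0.20.

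Against BMP4 with inhibitor, the same 6 genes were called with TGFb1 and BMP4, Sox9, Foxa1 and Elf3 higher (background 17.3%) and Klf4, Grhl3 and Trp63 lower (background 10.9%). Sox9 rose by 3.03 (SE 0.24, adjusted p 0.000616, limma), Klf4 fell by 2.65 (SE 0.20, adjusted p 0.000578) and Trp63 fell by 0.72 (SE 0.11, adjusted p 0.00538), and each stood in all 8 fits with a library left out. Grhl3 fell by 1.19 (adjusted p 0.0107), which was lost without the second library of TGFb1 with BMP4 (0.0562). Elf3 rose by 1.18 (adjusted p 0.019), which was lost without the first (0.0799) or the second (0.0504) of those libraries and with the compared groups alone (0.0692), and its value was 0.78 without the second library of BMP4 with inhibitor. Foxa1 rose by 1.45 (adjusted p 0.0294), which was lost with median-of-ratios scaling (0.0502), with no filter (0.0642) and with the compared groups alone (0.0614). Its call was also lost without the first (0.11) or second (0.0777) library of TGFb1 with BMP4, the second of BMP4 with inhibitor (0.115), and the first (0.0558) or second (0.0557) of inhibitor. Gata6, at 0.65, had an adjusted p of 0.355, and of 0.0399 with the replicate number as a block. Of all calls here 61.4% were higher, and with median-of-ratios scaling 48.2%.

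With TGFb1 alone, 4 genes were called against BMP4 with inhibitor: Sox9 and Elf3 higher (background 12.0%) and Klf4 and Trp63 lower (background 11.4%). Sox9 rose by 2.42 (SE 0.24, adjusted p 0.00139, limma), Elf3 rose by 1.66 (SE 0.26, adjusted p 0.00656), Klf4 fell by 2.14 (SE 0.20, adjusted p 0.00125) and Trp63 fell by 1.15 (SE 0.11, adjusted p 0.0014). These 4 calls stood in all 8 fits with a library left out. Foxa1 had a log2 fold change of 1.20 (adjusted p 0.0592) and Grhl3 of -0.62 (adjusted p 0.0934), and with the replicate number as a block their adjusted p-values were 0.00453 and 0.0148. The value of Foxa1 was 0.73 without the second library of BMP4 with inhibitor. Foxa1 also passed without the second TGFb1 library (0.0486) or without the first library of BMP4 with inhibitor (0.0275). These comparisons share libraries with those against the inhibitor and are not independent of them.

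More of the other transcription factor genes of squamous epithelium fell than rose with TGFb1. Of 19 genes, all tested, 2 were higher and 11 lower with TGFb1 and BMP4 than with inhibitor, beside 27.6% and 18.4% of all tested genes, and the median log2 fold change was -0.78, beside 0.13 over all tested genes. With TGFb1, 2 were higher and 10 lower, beside 20.0% and 20.0% of all genes (median -0.60, beside -0.01). The 10 lower became 6 without the first TGFb1 library or without the first inhibitor library, and the 2 higher became 1 without the first TGFb1 library or either inhibitor library. With TGFb1 and BMP4, 1 was higher without the first library of that group or the second of inhibitor. With BMP4 and inhibitor, 1 was higher and 3 lower, beside 5.49% and 2.91% of all genes (median 0.04, beside 0.02), and 3 and 6 with the replicate number as a block. The 3 lower became 1 without the first library of BMP4 with inhibitor or either inhibitor library.

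Ovol1, a zinc-finger gene of differentiating keratinocytes, had 21.1 and 14.3 CPM with TGFb1 and BMP4, 20.2 and 37.0 CPM with TGFb1, 175 and 148 CPM with BMP4 and inhibitor, and 196 and 147 CPM with inhibitor. It fell by 3.21 (SE 0.32, adjusted p 0.000595, limma) with TGFb1 and BMP4 and by 2.59 (SE 0.32, adjusted p 0.00191) with TGFb1. Klf3, a Krüppel-like repressor, had 189 and 194 CPM with TGFb1 and BMP4, 210.0 and 221 CPM with TGFb1, 454.5 and 502 CPM with BMP4 and inhibitor, and 477 and 444.5 CPM with inhibitor. Klf3 fell by 1.26 (SE 0.10, adjusted p 0.000333) and by 1.09 (SE 0.10, adjusted p 0.000828) in the 2 TGFb1 groups, and these calls of Ovol1 and Klf3 stood in all 8 fits with a library left out.

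Hopx, which encodes a small homeodomain protein of suprabasal cells, had 88.3 and 79.3 CPM with TGFb1 and BMP4, 233 and 305 CPM with TGFb1, 231 and 230.1 CPM with BMP4 and inhibitor, and 439 and 375.5 CPM with inhibitor. Sox15, an HMG-box gene, had 2.35 and 2.25 CPM, 6.05 and 9.49 CPM, 5.70 and 4.65 CPM, and 16.8 and 20.5 CPM in the same 4 groups. For both genes the combined treatment was lowest and each single ligand was intermediate. Against the inhibitor, Hopx fell by 2.26 with TGFb1 and BMP4 (SE 0.15, adjusted p 0.000221, limma), by 0.60 with TGFb1 (adjusted p 0.0226) and by 0.81 with BMP4 and inhibitor (adjusted p 0.0282). Sox15 fell by 2.57 with TGFb1 and BMP4 (SE 0.24, adjusted p 0.000471), fell by 1.19 with TGFb1 (adjusted p 0.00965) and fell by 1.67 with BMP4 and inhibitor (adjusted p 0.0119).

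Barx2, a homeobox gene named after its values were seen, had 6.80 and 8.74 CPM with TGFb1 and BMP4, 32.0 and 45.5 CPM with TGFb1, 3.45 and 5.85 CPM with BMP4 and inhibitor, and 47.3 and 39.6 CPM with inhibitor. It was low in both BMP4 groups and not with TGFb1 alone. Barx2 fell by 2.35 with TGFb1 and BMP4 (SE 0.27, adjusted p 0.0011, limma) and by 3.00 with BMP4 and inhibitor (SE 0.27, adjusted p 0.00357), both in all 8 fits with a library left out. With TGFb1 its log2 fold change was -0.18 (adjusted p 0.626). Barx2, Hopx and Sox15 were also the 3 genes of this list called between TGFb1 with BMP4 and TGFb1, all lower. With the replicate number as a block, 4 were lower and 2 higher, the additions being Maf (adjusted p 0.0199), Dlx3 (0.0376) and Pitx1 (0.0486). Maf was the 1 gene higher with BMP4 and inhibitor, by 1.28 (adjusted p 0.0223), and Maf was also higher in each TGFb1 group.

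Several of these smaller changes were lost under other settings or without single libraries. With no filter and with the compared groups alone, Hopx (adjusted p 0.0664 and 0.0524) and Maf (0.0542 and 0.0723) lost their calls for BMP4 with inhibitor against inhibitor. Under the same 2 settings Sox15 (0.106 and 0.145) and Barx2 (0.0608 and 0.0867) lost theirs for TGFb1 with BMP4 against TGFb1, where Hopx was lost with the compared groups alone (0.0867). With BMP4 and inhibitor against inhibitor, the call of Hopx was lost without any 1 of the 4 libraries compared (adjusted p 0.0534 to 0.146). In the same comparison Sox15 was lost without the first library of BMP4 with inhibitor or either inhibitor library (0.0524 to 0.0971), and Maf without the first library of BMP4 with inhibitor or the second of inhibitor (0.0996 and 0.126). With TGFb1 against inhibitor, Hopx (0.0523 to 0.117) was lost without the first TGFb1 library or either inhibitor library, and Sox15 without the first TGFb1 or the second inhibitor library (0.0541 and 0.0644). With TGFb1 and BMP4 against inhibitor, Maf was lost without the first library of the combined treatment or the second of inhibitor (0.0635 and 0.0727). For TGFb1 with BMP4 against TGFb1, Sox15 was lost without any 1 of the 8 libraries (0.0528 to 0.189) and Hopx without either library of the combined treatment (0.0658 and 0.0704). Barx2 was lost there without either library of the combined treatment, the second TGFb1 library or either inhibitor library (0.0602 to 0.102).

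**Figure D5:**
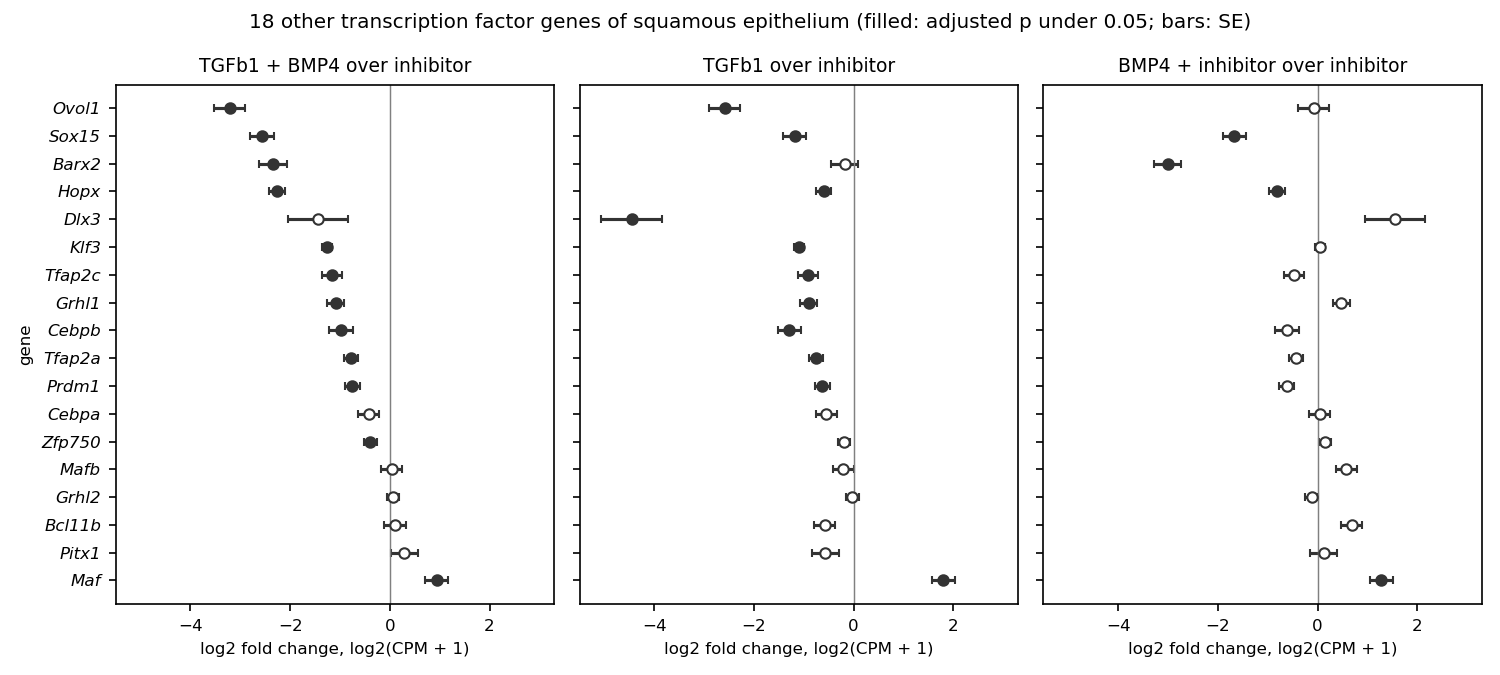
Log2 fold change over the inhibitor group, on the log2(CPM + 1) scale, of 18 of the 19 other squamous transcription factor genes for TGFb1 with BMP4 (left), TGFb1 (middle) and BMP4 with inhibitor (right). Points are estimates, bars the SE, and filled points passed an adjusted p of 0.05; 11, 10 and 3 genes are filled below 0 and 1, 1 and 1 above it.

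Other transcription factor genes listed for columnar epithelia were mostly too low to test. Of 20 genes, 4 were tested, and Cdx1, Cdx2, Foxa2, Atoh1, Isx and Nkx2-1 were at 0 in every library. The other 10 untested genes, among them Barx1, Foxa3, Gata4, Gata5, Hnf4a, Hnf4g, Onecut2, Pdx1 and Sox17, reached at most 0.700 CPM in any library. A count of 0 allows up to about 0.150 CPM on the deposited scale. Against the inhibitor, Spdef, a goblet-cell factor, was the 1 called gene and was lower. It had 0 and 0.150 CPM with TGFb1 and BMP4, 0.300 and 2.30 CPM with TGFb1, 7.99 and 8.99 CPM with BMP4 and inhibitor, and 15.9 and 10.9 CPM with inhibitor. Its adjusted p against the inhibitor was 0.00106 with TGFb1 and BMP4 and 0.00409 with TGFb1 (limma). Between TGFb1 with BMP4 and BMP4 with inhibitor, Spdef was called lower and 1 other of the 4 genes higher, beside 10.9% and 17.3% of all genes. Creb3l1, another tested gene, reached at most 52.9 CPM. For TGFb1 with BMP4 over inhibitor, Creb3l1 had a log2 fold change of 0.75 and an adjusted p of 0.0967, and of 0.0375 with the replicate number as a block. With BMP4 and inhibitor it had a log2 fold change of -1.13 and an adjusted p of 0.0822, and of 0.0232 with the block.

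Paralogs of the 10 genes moved in both directions. Of 25, 14 were tested, and against the inhibitor 6 were higher and 4 lower with TGFb1 and BMP4, beside 27.6% and 18.4% of all genes (median 0.29, beside 0.13). With TGFb1, 5 were higher and 4 lower, beside 20.0% and 20.0% (median 0.09, beside -0.01), and with BMP4 and inhibitor 1 higher and 1 lower, beside 5.49% and 2.91% (median 0.27, beside 0.02). With no filter these counts were 3 and 4, 1 and 3, and 0 and 0. The 5 higher with TGFb1 became 0 without the first TGFb1 library, 1 without the second, 2 without the first inhibitor library and 1 without the second, and the 4 lower became 2 without the first TGFb1 library. The 6 higher with TGFb1 and BMP4 became 3 without any 1 of the 4 libraries compared. Klf7 had 97.8 and 124 CPM with TGFb1 and BMP4, 78.7 and 79.6 CPM with TGFb1, 150.4 and 243 CPM with BMP4 and inhibitor, and 426 and 395 CPM with inhibitor. It fell by 1.89 (SE 0.23, adjusted p 0.00126, limma) and by 2.36 (SE 0.23, adjusted p 0.000955) in the 2 TGFb1 groups. Grhl1, the paralog of Grhl3, fell by 1.09 (SE 0.17, adjusted p 0.0031) and by 0.90 (SE 0.17, adjusted p 0.00769), the second lost without the first TGFb1 library (0.0512).

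Trp73, the paralog of Trp63, had 5.40 and 5.10 CPM with TGFb1 and BMP4, 5.35 and 6.05 CPM with TGFb1, 3.45 and 1.75 CPM with BMP4 and inhibitor, and 2.45 and 0.999 CPM with inhibitor. It was higher by 1.25 (adjusted p 0.0214, limma) and by 1.35 (adjusted p 0.0193) in the 2 TGFb1 groups, each lost in 3 of 8 fits with a library left out (0.0681 to 0.107 and 0.0692 to 0.0977), namely either library of the TGFb1 group compared and the second inhibitor library. The other paralogs called with TGFb1 were Klf10, Sox4, Sox21 and Klf6, which were higher, and Klf3 and Trp53, which were lower. Of these, Klf10 (0.101 to 0.114) and Trp53 (0.0963 to 0.139) were lost without either TGFb1 library or the second inhibitor library. Sox4 was lost without the first TGFb1 library or either inhibitor library (0.0824 to 0.115), and Sox21 without any 1 of the 4 libraries compared (0.0572 to 0.101). Klf6 was lost without either TGFb1 library, the first inhibitor library or either library of TGFb1 with BMP4 (0.0580 to 0.185). Elf5 was the remaining lower paralog with TGFb1 and BMP4, with a log2 fold change of -1.02 (adjusted p 0.0166), and was lost without the second library of that group or the first of inhibitor (0.0792 and 0.0909). With BMP4 and inhibitor, Klf10 was higher and lost its call without any library but the first of inhibitor (0.0598 to 0.191), and with median-of-ratios scaling (0.0583). Klf7 was lower there and lost its call without any library but the second of BMP4 with inhibitor (0.0515 to 0.164). With the replicate number as a block Sox4 was added as higher (0.00611).

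The 11 untested paralogs reached at most 1.95 CPM, in Gata3; 7 of them reached at most 0.20 CPM, among them Foxa2 and Sox3 at 0.

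Against the inhibitor, known p63 target genes of keratinocytes were called in both directions with TGFb1. Of 11, all tested, 3 were higher and 4 lower with TGFb1 and BMP4 than with inhibitor, beside 27.6% and 18.4% of all genes (median 0.28, beside 0.13). With TGFb1, 2 were higher and 3 lower, beside 20.0% and 20.0% (median 0.24, beside -0.01). With BMP4 and inhibitor 2 were called, both higher, beside 5.49% (median 0.39, beside 0.02). The shares higher with TGFb1, with or without BMP4, were thus near those of all genes. With the replicate number as a block the counts were 5 and 4, 4 and 4, and 5 and 0, and with median-of-ratios scaling 2 and 4, 1 and 3, and 1 and 0. With no filter they were 2 and 4, 1 and 3, and 1 and 0, and with the compared groups alone 2 and 4, 1 and 3, and 0 and 0. The 2 higher with TGFb1 became 0 without the first TGFb1 library or either inhibitor library, and 1 without the second TGFb1 library or either library of BMP4 with inhibitor. The 2 higher with BMP4 and inhibitor became 0 or 1 without any 1 of the 8 libraries. Jag2, a Notch ligand, had 169 and 149 CPM with TGFb1 and BMP4, 100.2 and 125 CPM with TGFb1, 296 and 327 CPM with BMP4 and inhibitor, and 374 and 455 CPM with inhibitor. It fell by 1.37 (SE 0.16, adjusted p 0.00105, limma) and by 1.87 (SE 0.16, adjusted p 0.000634) in the 2 TGFb1 groups. Itga3, an integrin chain, fell by 1.54 (SE 0.19, adjusted p 0.00144) and by 1.23 (SE 0.19, adjusted p 0.00443), and Dst, a hemidesmosome linker, fell by 0.79 (SE 0.15, adjusted p 0.00685) and by 1.04 (SE 0.15, adjusted p 0.00336). These calls of Jag2, Itga3 and Dst stood in all 8 fits with a library left out. Against BMP4 with inhibitor, 0 of the 11 were higher and 6 lower with TGFb1, beside 12.0% and 11.4% of all genes (median -0.58, beside -0.03). Of those 6, Itgb4 and Col17a1 were lost with median-of-ratios scaling (adjusted p 0.0700 and 0.0781, limma). With TGFb1 and BMP4, 1 was higher and 4 lower than with BMP4 and inhibitor, beside 17.3% and 10.9% (median -0.29, beside 0.12).

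Itgb4, the integrin beta chain of hemidesmosomes, went the other way, with 3340 and 3097 CPM with TGFb1 and BMP4, 1850 and 1536 CPM with TGFb1, 2654 and 2632 CPM with BMP4 and inhibitor, and 1120 and 1369 CPM with inhibitor. It rose by 1.38 (SE 0.17, adjusted p 0.0013, limma) with TGFb1 and BMP4 and by 1.09 (SE 0.17, adjusted p 0.0156) with BMP4 and inhibitor, the second lost without the first library of BMP4 with inhibitor or without either inhibitor library (0.0634 to 0.0932). With TGFb1 its log2 fold change was 0.44 (adjusted p 0.0753, and 0.0452 with the replicate number as a block). Krt14 was also among the genes higher with TGFb1 and BMP4 and with TGFb1. Krt14 lost its call with median-of-ratios scaling in both (adjusted p 0.0987 and 0.0927). With TGFb1 and BMP4 it was also lost without the first library of that group, the first TGFb1 library or either inhibitor library (0.0501 to 0.112), and with TGFb1 without any library of TGFb1, of BMP4 with inhibitor or of inhibitor (0.0643 to 0.210). Perp was the remaining lower gene with TGFb1 and BMP4 and was lost without the second library of that group or either inhibitor library (0.0576 to 0.0853). Col17a1 was the other gene higher with BMP4 and inhibitor (adjusted p 0.0466) and was lost without any 1 of the 8 libraries (0.0672 to 0.193).

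The genes whose pattern over the 8 libraries was nearest to each of the 10 were found among 10887 tested genes with a mean of 5 CPM or more, by the root-mean-square difference of centred log2(CPM + 1). Spink5, which encodes a protease inhibitor of differentiated squamous cells, was nearest to Klf4, at 0.159, where the median over all candidates was 1.23. Spink5 had 419 and 352 CPM with TGFb1 and BMP4, 474 and 652 CPM with TGFb1, 2219 and 2452 CPM with BMP4 and inhibitor, and 1692 and 1608 CPM with inhibitor. Lasp1, a gene of an actin-binding protein, was nearest to Elf3, at 0.0823 (median 0.871), Ccdc9 to Trp63, at 0.0869 (median 0.537), and Spire2, of an actin nucleator, and Cgn, of the tight-junction protein cingulin, to Grhl3, at 0.105 and 0.119 (median 0.654). Fes, of a tyrosine kinase, was nearest to Sox9, at 0.239 (median 1.30), and Ube2l6 to Foxa1, at 0.131 (median 1.03). Ube2h was nearest to Pax9 (0.0487), Acad10 to Klf5 (0.0838), Mccc2 to Sox2 (0.116) and Ly6k to Gata6 (0.159), where the spread of the member itself was 0.162, 0.229, 0.224 and 0.498. The second nearest were Rapgef3os1 to Klf4 (0.193), Lxn to Elf3 (0.116), Samd1 to Trp63 (0.0989), Zfp608 to Sox9 (0.249), Zfp467 to Foxa1 (0.153), Ranbp10 to Pax9 (0.0586), Adipor2 to Klf5 (0.0949), Ttc21b to Sox2 (0.124) and Zfp970 to Gata6 (0.161). These distances share libraries and depth and describe likeness only.

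Among the 10 genes themselves, Sox2 and Klf5 were the nearest pair, with a root-mean-square difference of 0.204, and Sox9 and Klf4 the farthest, at 2.46. The difference is not scaled by spread, so genes that changed little lie near each other. The spreads of Sox2 and Klf5 themselves were 0.224 and 0.229. Of the 3 genes that rose, Foxa1 and Elf3 differed by 0.407, Sox9 and Foxa1 by 0.669 and Sox9 and Elf3 by 0.711. Of the 3 that fell, Trp63 and Grhl3 differed by 0.418, Klf4 and Grhl3 by 0.718 and Trp63 and Klf4 by 0.808. Thus Foxa1 lay nearer to Elf3 than to Sox9, and Grhl3 nearer to Trp63 than to Klf4.

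In the authors' deposited table, with 1 test per gene over all groups, the FDR was 0.00587 for Klf4, 0.0112 for Trp63 and 0.0194 for Sox9. The authors' deposited table gave 0.0582 for Elf3, 0.0993 for Grhl3 and 0.103 for Foxa1, and 0.380 to 0.790 for Klf5, Sox2, Gata6 and Pax9. Its log2 fold changes over the control had the same sign as those above for the 6 genes called with TGFb1, and for Sox9 they were 2.49 with TGFb1 and BMP4 and 1.99 with TGFb1 in the authors' deposited table.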

How the data were processed

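Per the labels' protocols, libraries for NovaSeq sequencing were made with the Ovation Solo RNA-seq System. The submitters' processing notes name, without saying which did what, the tools STAR 2.5.3a, HTSeq, Cell Ranger 3.1.0 and edgeR, and as builds mm10 and GRCm38. In the sources used here, no annotation, strand setting or filter is given. The authors deposited whole-number values that are treated as a score, scaled by the authors to nearly equal totals (20011215 to 20013233, read from the values), so that raw depth per library is not known. The authors' CPM columns are these values rescaled, to within 0.0005. The table also holds the authors' own log2 fold changes and FDR (adjusted p-values).

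Because the deposited values are scaled, log2(CPM + 1) was tested with limma 3.58.1 (trend, two-sided) in R 4.3.3, for genes that reached 1 CPM in 2 libraries. The model had only the group as a term and used all 8 libraries (4 residual degrees of freedom). Adjustment was by Benjamini-Hochberg over 16180 genes within each of 7 comparisons, with a threshold for calls of 0.05. The pseudocount makes changes of low genes look smaller. On data simulated from the inhibitor means (14961 genes tested), the fit called 62 of 100 genes set to change 2-fold, 100 of 100 set to change 4-fold and 7 of 14761 left alone. The simulation used a spread and depth set beforehand, no pairing of libraries, and changes only in those genes, which were above a level cut. In the real libraries 6471 genes were called for TGFb1 against inhibitor and depth is unknown, so these rates need not hold for them.

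The 10 genes, the lists and the tests were chosen with earlier results of these data known. The rule for named genes took the 10 genes, the nearest 2 genes to each by pattern (leaving out predicted genes), and up to 4 called genes per list by smallest adjusted p against the inhibitor. Genes in counts of 5 or fewer were named after their values were seen, and some list genes that enter the counts are not reported here by name. Gene positions and merged exons came from GENCODE M21 on GRCm38, to which 99.72% of gene IDs matched, and promoter sequences from RefSeq, GRCm38.p6. Floors of 3 scaled units (0.15 CPM) cover counting error only.

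The labels number the replicates without saying what a number stands for. Over the 6 pairs of groups, same-numbered libraries deviated from their group means together, with correlations of 0.324 to 0.738, all above 0.1. The numbers may therefore pair the libraries, which the fit with the group as the only term leaves out. The blocked value stands beside each call of the 10 genes that it changes. For genes of the lists, not every call that the block changes is given. The 2 libraries of a group were distinct, with a chi-square per gene of 23.9 to 51.7. Alternatives were a pseudocount of 0.1, no filter, a filter of 1 CPM in 4 libraries, median-of-ratios scaling, the block, the compared groups alone and each library left out. A second sheet of the workbook was not used here.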

Additional observations from a re-analysis of the deposited data

How the results depend on the processing

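Of 970 alternative values of the 10 genes over 7 comparisons, 939 kept their direction or stayed uncalled, 19 lost a call, 12 gained one and 0 reversed a called direction; 36 of the 939 changed sign while uncalled both ways. With the replicate number as a block, 1 of the 10 genes (Foxa1) was called for BMP4 with inhibitor against inhibitor, where 0 were without it (limma), and the block ended no call of the 10 genes. Leaving out 1 library gave 3 to 6 of the 10 genes called for TGFb1 with BMP4 against BMP4 with inhibitor, and the count of 3 came without the second library of TGFb1 with BMP4. The cause was not tested.

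Counts over all genes moved more than those of the 10 genes. With the block they were 3502 in place of 1360 for BMP4 with inhibitor against inhibitor, 1121 in place of 326 for TGFb1 with BMP4 against TGFb1, 5764 in place of 3779 for TGFb1 against BMP4 with inhibitor, and 1117 in place of 208 for the interaction. With no filter, which tests more genes, they were 751, 80 and 27 for the first, second and last of these. With the compared groups alone, which have fewer samples, they were 581 and 0 for the first and second, with 3088 genes at an unadjusted p under 0.05 in the second (limma), 2157 for the third, and 2378 in place of 4556 for TGFb1 with BMP4 against BMP4 with inhibitor. With 1 library left out they were 188 to 2300, 19 to 315, 1567 to 3497 and 0 to 602 for those 4 comparisons, 2424 to 3839 for TGFb1 with BMP4 against BMP4 with inhibitor, and against inhibitor 3101 to 6530 in place of 6471 for TGFb1 and 4493 to 7522 in place of 7449 for TGFb1 with BMP4. The count of 0 came without the first inhibitor library, with 2690 genes at an unadjusted p under 0.05 (limma). Depth per library is unknown, and 2 libraries per group limit what small changes could be called.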
